A study of Arabidopsis thaliana with 9 samples.

Results

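The genes described here are 8 Arabidopsis thaliana genes known for their response to touch and early wounding: TCH2 (AT5G37770), TCH3 (AT2G41100), TCH4 (AT5G57560), CML38 (AT1G76650), ZAT10 (AT1G27730), ZAT12 (AT5G59820), WRKY40 (AT1G80840) and WRKY53 (AT4G23810). They were taken by identifier from a table of raw counts for 28775 genes, and all 8 passed the filter on low counts, as did 19580 genes in all. The table covers roots of Col-0 seedlings in 9 libraries, 3 from mock seedlings without carbenicillin, 3 from seedlings with 1 day on carbenicillin and 3 from seedlings with 7 days on it, each at 10 µg/mL. Carbenicillin, an antibiotic related to penicillin, stops bacteria from building their cell wall. Every seedling grew 6 days on a first plate of half-strength Murashige and Skoog medium and 1 day on a second, so all groups, mock included, were moved between plates. The 1 day seedlings met the antibiotic on the second plate, and the 7 day seedlings met it on both. The labels' protocols mention no touch or wounding treatment.

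When a plant cell is bent, brushed or cut, calcium enters the cytosol within moments, and calmodulin and calmodulin-like proteins bind it. Transcripts of calcium sensors, of wall enzymes and of transcription factors of the zinc finger and WRKY families then appear quickly and decline again. Several of these genes were found as touch genes in Arabidopsis, which gave the TCH names, and the same set answers cold, wounding, salt and reactive oxygen in roots and shoots. CAMTA factors, which bind calmodulin, act on CGCG-containing promoter elements of such genes, and WRKY proteins bind W-boxes.

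The libraries differed in depth and in shoot transcripts within each group. Mock replicate 1, 1 day replicate 3 and 7 days replicate 3 held 5820675 to 7533177 counts and are called the shallow libraries below, and the other 6 held 13707967 to 16088265. All 10 root markers listed, such as SHR and CASP1, had counts in every library. PYK10 alone had 15858 to 25954 CPM (counts scaled to a common library total), and the other 9 summed to between 313 and 417 CPM. The 8 shoot markers (LOX2, TGG1, RBCS3B, RBCS2B and the CA and LHCB1 genes listed) all had counts in mock 1, mock 3, 1 day 3 and 7 days 3, where they summed to between 32.5 and 92.6 CPM. In the other 5 libraries 1 to 4 of them were at 0 and their sum lay between 0.603 and 2.11 CPM. The shoot markers were picked after these data had been seen, so this split of the libraries is a description only. The 8 touch and wounding genes were chosen by values of these same libraries: earlier results had shown such genes high in the shallow ones. Their differences between shallow and other libraries are therefore given as a description, without a test. The treatment comparisons did not choose them and are tested. But each group holds 1 shallow library, so this choice favours genes with a wide spread within groups. A wide spread makes a low p, or groups without overlap, less likely. Nothing is therefore read from the shares of the 8 genes under a p threshold or without overlap, beside those of all tested genes. The labels number the replicas but do not tell whether each was a culture of its own, so the p-values reflect only how far these libraries differ, part of which may be technical.

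Of the 250 bases before each annotated gene start, 3 are shown because they hold the contrast between the members: the TCH2 window holds paired copies of a CGCG element, the WRKY53 window holds a W-box in each orientation, and the ZAT10 window holds neither. ZAT10 was picked for its range of levels, and no relation of these letters to the levels was tested. They were read from the RefSeq genome TAIR10.1 by its own annotation, 5′ to 3′ on the strand of the gene. The build behind the counts is not given in the sources used here, and capitals mark every match, on either strand, to the rapid stress response element (RSRE) CGCGTT, the CG-1 element ACGCGT, the W-boxes TTGACC and TTGACT, the G-box CACGTG and the dehydration element CCGAC.
TCH2, chr5:14999620-14999869, minus strand: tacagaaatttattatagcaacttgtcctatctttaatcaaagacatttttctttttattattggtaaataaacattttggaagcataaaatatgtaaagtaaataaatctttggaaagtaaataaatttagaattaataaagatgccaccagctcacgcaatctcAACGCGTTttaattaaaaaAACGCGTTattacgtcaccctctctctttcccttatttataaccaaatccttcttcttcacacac
WRKY53, chr4:12393983-12394232, minus strand: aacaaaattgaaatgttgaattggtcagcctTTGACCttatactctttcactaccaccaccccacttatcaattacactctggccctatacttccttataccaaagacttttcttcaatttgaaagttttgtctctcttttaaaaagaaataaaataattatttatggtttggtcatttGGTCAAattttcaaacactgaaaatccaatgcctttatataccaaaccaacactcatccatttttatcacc
ZAT10, chr1:9649324-9649573, minus strand: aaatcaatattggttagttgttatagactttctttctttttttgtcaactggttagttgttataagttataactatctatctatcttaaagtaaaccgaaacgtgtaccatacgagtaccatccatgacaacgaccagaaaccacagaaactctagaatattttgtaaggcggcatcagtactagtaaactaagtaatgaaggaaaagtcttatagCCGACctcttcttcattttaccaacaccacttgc
In TCH2 the capitals at positions -84 to -77 and -65 to -58 before the start each contain the RSRE on both strands and the CG-1 element, which overlap. TCH2 was the only member with an RSRE or a CG-1 element in this window, where 2.59% and 1.67% of 27443 promoters of protein-coding genes hold them. A W-box of either form was found in 3 of the 8 members (TCH4, CML38 and WRKY53), and in 28.4% of all promoters. CCGAC was found in ZAT10 alone, at -34 to -30, and in 12.0% of all promoters, while CACGTG was in none of the 8 and in 6.49% of all. A match is a run of letters and not a known site.

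TCH2, TCH3 and CML38 encode calmodulin-like proteins, which sense calcium through EF-hands. From here on the level of a gene is its CPM scaled by TMM, while the marker sums stay scaled by library total. TCH2 (also CML24) stood at 27.7, 12.4 and 14.5 CPM in mock 1, 2 and 3, at 9.31, 11.7 and 19.8 in 1 day 1, 2 and 3, and at 10.6, 8.85 and 22.9 in 7 days 1, 2 and 3. The shallow library was the highest of each group, and all 3 shallow libraries lay above the other 6. This is the gene with the paired CGCG elements printed above. TCH3 (also CML12) went the other way in mock roots, with 5.78 CPM in mock 1 against 8.73 and 8.75 in mock 2 and 3. In the carbenicillin groups its levels were 6.80, 12.1 and 16.5 CPM for 1 day and 4.88, 7.45 and 14.2 CPM for 7 days, with the shallow library last in each. TCH3 was thus highest in the shallow library in the carbenicillin groups and lowest there in mock.

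CML38, a calcium sensor also known from hypoxia, had the fewest counts of the 8 genes, 6 to 22 per library. Its mock libraries stood at 1.40, 1.26 and 1.48 CPM, its 1 day libraries at 0.430, 1.32 and 1.31, and its 7 day libraries at 0.431, 0.937 and 2.40. Only in the 7 day group was the shallow library above both others. A count of 6 has an exact 95% Poisson interval of 2.20 to 13.1 counts, which covers counting error only, so most of these levels could not be told apart at this depth.

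TCH4 (also XTH22) encodes a xyloglucan endotransglucosylase/hydrolase, which cuts and rejoins xyloglucan in the wall. Its levels were 6.13, 2.51 and 1.82 CPM in mock 1 to 3, 2.43, 2.84 and 4.96 CPM in 1 day 1 to 3, and 2.15, 1.54 and 6.59 CPM in 7 days 1 to 3. The 3 shallow libraries lay above the other 6 without overlap, on 23 to 45 counts per library.

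ZAT10 and ZAT12 encode zinc finger proteins of the C2H2 type. ZAT10, a repressor known from salt, drought and jasmonate responses, had levels of 24.5, 7.92 and 5.79 CPM in mock 1 to 3, 4.80, 6.05 and 20.0 CPM in 1 day 1 to 3, and 4.16, 3.49 and 27.0 CPM in 7 days 1 to 3. Its highest library held 7.73 times the level of its lowest, the widest range of the 8 genes, and the shallow libraries did not overlap the other 6. ZAT12, known from high light and oxidative stress, stood at 27.2, 23.9 and 19.2 CPM in mock 1 to 3. Its levels were 12.6, 17.0 and 21.7 CPM in 1 day 1 to 3 and 14.9, 12.0 and 28.6 CPM in 7 days 1 to 3. The shallow library was the highest of each group, but 1 day 3 lay below mock 2, so the shallow libraries and the other 6 overlapped.

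WRKY40 and WRKY53 encode transcription factors. WRKY40, which acts with WRKY18 and WRKY60 in immunity and abscisic acid signalling, had 7.18, 1.70 and 1.75 CPM in mock 1 to 3, 2.86, 2.96 and 6.40 CPM in 1 day 1 to 3, and 2.51, 1.95 and 11.2 CPM in 7 days 1 to 3. All 3 shallow libraries were above the other 6. WRKY53, known as a promoter of leaf senescence, ran only from 2.37 to 4.65 CPM. Its levels were 3.33, 3.96 and 3.298 CPM in mock 1 to 3, 2.86, 3.53 and 3.53 CPM in 1 day 1 to 3, and 2.37, 2.48 and 4.65 CPM in 7 days 1 to 3. WRKY53 had the narrowest range of the 8 genes, and 7 days 3 alone stood clear of the rest of its group.

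**Figure D1:**
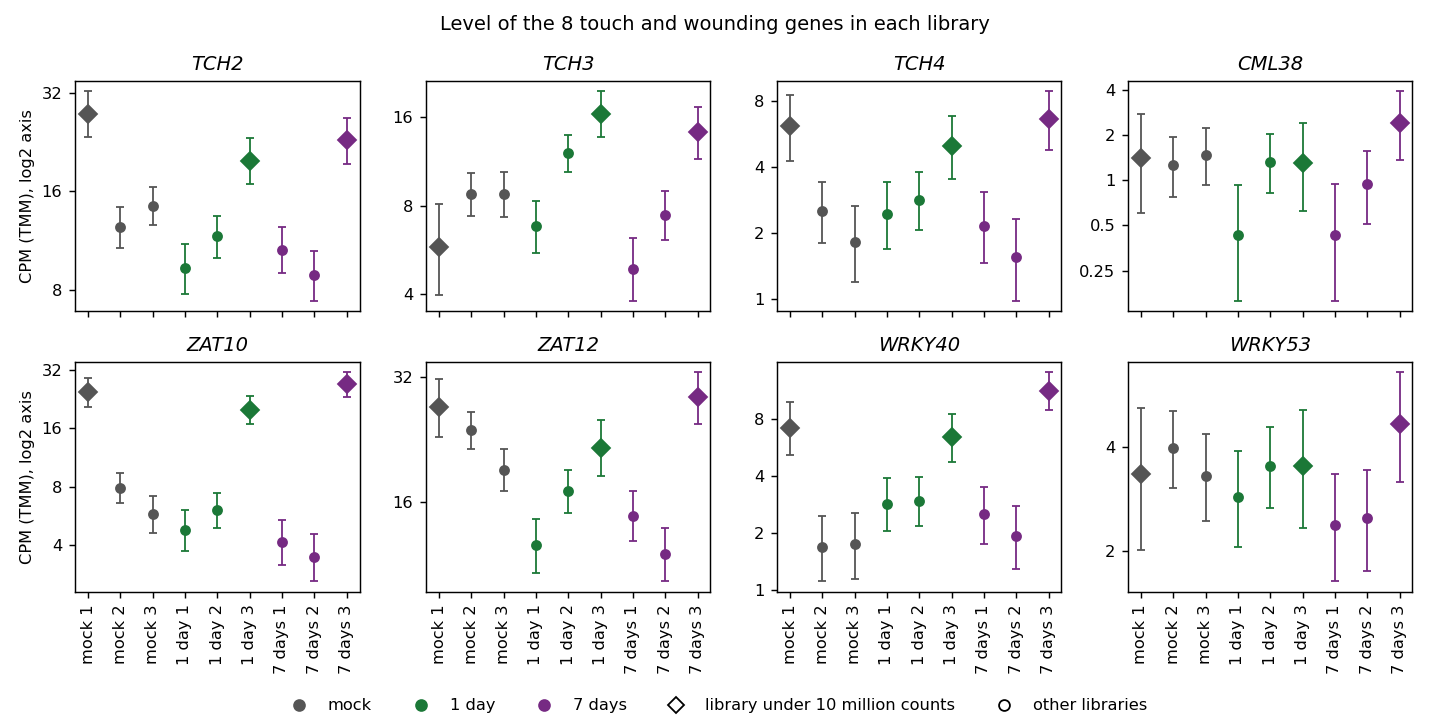
Each panel plots the level of a gene (CPM scaled by TMM, log2 axis) in the 9 libraries, with bars for the exact 95% Poisson interval of the count; diamonds are libraries under 10000000 counts. In TCH2, TCH4, ZAT10 and WRKY40 the 3 diamonds lie above all 6 circles, whereas TCH3 in mock 1, at 5.78 CPM, lies below both other mock libraries.

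Set per kilobase of RefSeq exon, so that genes can be compared, the median level over 9 libraries was 19.6 CPM per kb for ZAT12, 6.20 for TCH2, 4.64 for ZAT10 and 3.43 for TCH3. It was 2.20 CPM per kb for WRKY53, 2.16 for WRKY40, 1.58 for TCH4 and 1.31 for CML38. The ranges of neighbours in this order all overlapped. ZAT12 stood above TCH2 and TCH3 above WRKY53 in 9 of 9 libraries, while TCH2 exceeded ZAT10 in 6 and WRKY53 exceeded WRKY40 in 4, so those neighbours had no steady order.

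Within each treatment group the shallow library was set against the mean of the other 2 on the log2 CPM scale (prior count 2). ZAT10 was higher by 1.83 in mock, 1.86 in 1 day and 2.77 in 7 days, a mean of 2.15, or 4.45-fold. WRKY40 followed with 1.96, 1.09 and 2.26 (mean 1.77), TCH4 with 1.45, 0.88 and 1.76 (mean 1.36) and TCH2 with 1.04, 0.92 and 1.23 (mean 1.06). All 4 were higher in the shallow library of each group.

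ZAT12 had smaller differences of 0.34, 0.56 and 1.09 (mean 0.66). For CML38 the differences were 0.03, 0.65 and 1.66 (mean 0.78), for TCH3 -0.58, 0.85 and 1.22 (mean 0.49) and for WRKY53 -0.11, 0.14 and 0.89 (mean 0.31). The last 3 genes were thus near to or below the other libraries in mock roots and above them in the 7 day group. Over the 8 genes the mean difference was 0.74 in mock, 0.87 in 1 day and 1.61 in 7 days, beside -0.03, 0.00 and 0.00 over all 19580 tested genes. Each group has only 1 shallow library, so treatment and library cannot be told apart in how these differences vary between groups. The shallow library was above both others in all 3 groups for 5 of the 8 genes and for 9.16% of all tested genes. All 3 shallow libraries were above all 6 others for 4 of the 8 and for 4.48% of all, and all 3 were below all 6 for 0 of the 8 and 4.47% of all. Because this pattern led to the choice of the genes, nothing is read from these shares.

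**Figure D2:**
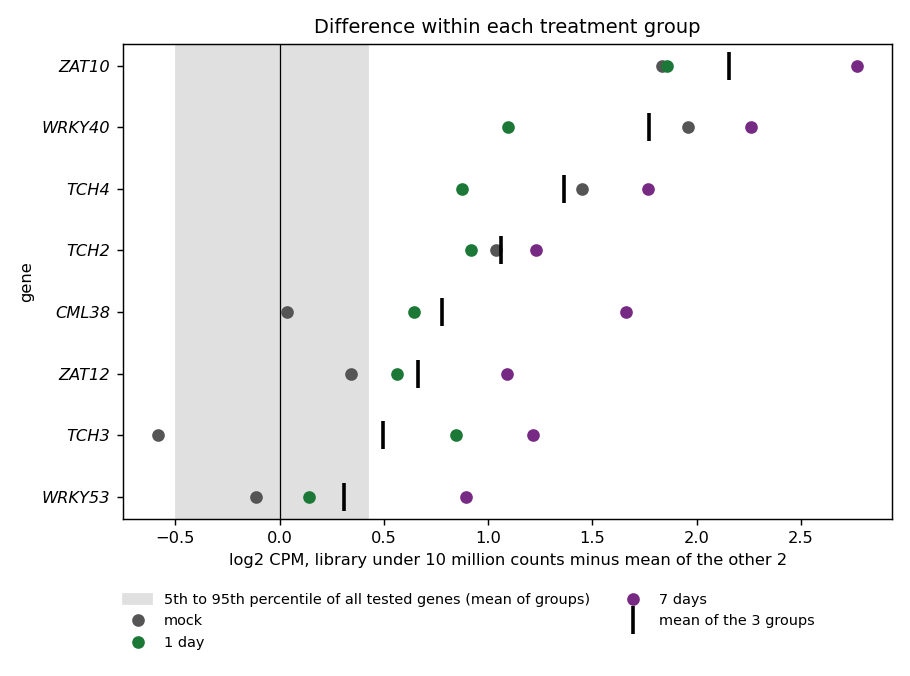
Log2 CPM of the library under 10000000 counts minus the mean of the other 2 libraries of its group, by gene; coloured points are the 3 treatment groups, black ticks their mean, and the grey band the 5th to 95th percentile of that mean over all tested genes. ZAT10 has the largest mean, 2.15, and TCH3 and WRKY53 have values below 0 in mock, -0.58 and -0.11.

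Depth and shoot transcripts moved with these genes, though not in every library or gene. Mock 3 had a shoot marker sum of 38.6 CPM, above the 32.5 CPM of mock 1. ZAT10 was at 5.79 CPM in mock 3 and 24.5 CPM in mock 1. In the same order WRKY40 was at 1.75 and 7.18 CPM, TCH4 at 1.82 and 6.13, TCH2 at 14.5 and 27.7 and ZAT12 at 19.2 and 27.2. CML38, at 1.48 and 1.40 CPM, and WRKY53, at 3.298 and 3.33 CPM, were nearly level. TCH3 was higher in mock 3, at 8.75 CPM against 5.78 CPM in mock 1. Each shallow library also had a shoot marker sum of at least 32.5 CPM, and the largest sums, 92.6 and 62.4 CPM, were in 7 days 3 and 1 day 3. The part of depth or of shoot transcripts in these differences was not tested. Mitochondrial transcripts took 5.94%, 3.53% and 5.31% of the counts in mock 1, 1 day 3 and 7 days 3, and 2.199% to 4.42% in the other 6. Roots are mixtures of cells, so a higher share of responding cells and more transcript per cell cannot be told apart.

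**Figure D3:**
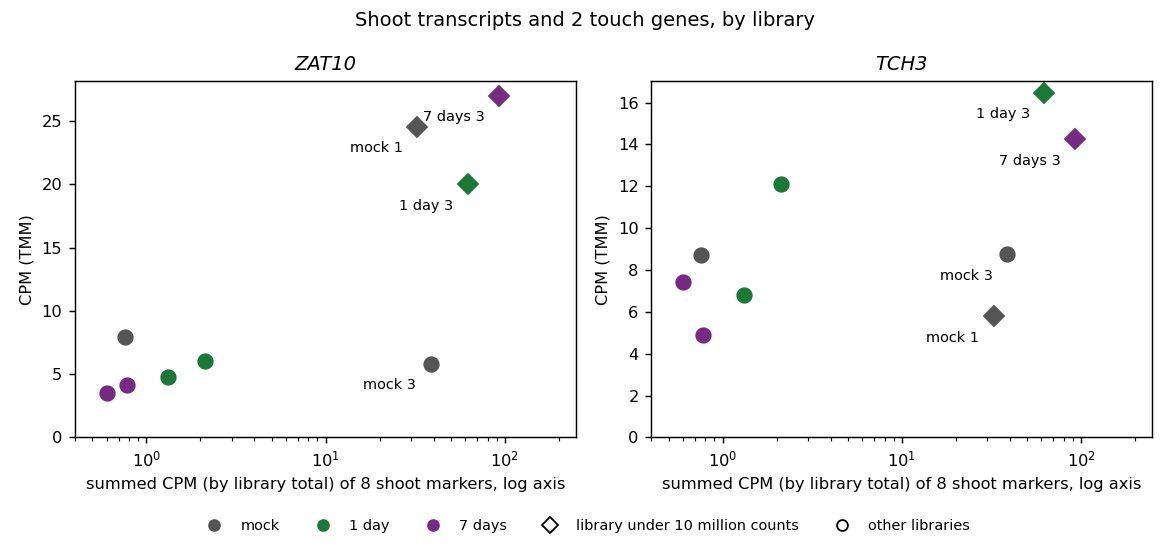
Level of ZAT10 (left) and TCH3 (right) in CPM against the summed CPM of 8 shoot markers (log axis) in the 9 libraries; diamonds are libraries under 10000000 counts and the libraries with a sum above 10 are named. Mock 3 has a shoot sum of 38.6 CPM and a ZAT10 level of 5.79 CPM, and mock 1 has the second lowest level of TCH3, 5.78 CPM.

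Reads of neighbouring genes could in part be shared. In RefSeq 1 antisense gene overlaps each of TCH2, WRKY40 and WRKY53, and TCH3 is overlapped by AT2G09220 and AT2G41105, which were not analysed here. The library kit keeps strand, but the setting used in counting is not given in the sources used here. AT5G37760, the partner of TCH2, reached at most 0.215 CPM. AT1G80850, opposite WRKY40, had a mean shallow difference of 0.03, and AT4G23800, opposite WRKY53, one of 0.13, against 1.77 and 0.31 for the members. Next to TCH2 and TCH3 lie CAM1 and CAM2, which encode calmodulin itself and had differences of -0.09 and -0.12. CML39, the neighbour and close relative of CML38, had a difference of 2.01 where CML38 had 0.78, and the values of both are uncertain where reads match either copy.

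The first question of the design is what 1 day on carbenicillin does to the root transcriptome, and none of the 8 genes passed that test. ZAT12 came nearest, with 23.4 ± 4.01 CPM in mock and 17.1 ± 4.54 CPM after 1 day (SD, n = 3 each), which put the log2 fold change at -0.46 (SE 0.30, 95% interval -1.11 to 0.19, adjusted p = 0.780 by the edgeR fit). TCH3 had 7.76 ± 1.71 and 11.8 ± 4.83 CPM, a log2 fold change of 0.53 (SE 0.38, interval -0.29 to 1.36, adjusted p = 0.808). TCH2 stood at -0.40 (SE 0.40) and CML38 at -0.46 (SE 0.55). ZAT10 had 12.7 ± 10.3 CPM in mock and 10.3 ± 8.43 CPM after 1 day, a log2 fold change of -0.27 with an interval of -2.09 to 1.54. The SD of ZAT10 within a group was 80.5% of its mean in mock and 82.0% in 1 day, and its interval was the widest of the 8. WRKY40 was at 0.37 (SE 0.74), TCH4 at 0.07 (SE 0.56) and WRKY53 at -0.11 (SE 0.26). Among all tested genes 0.158% were called, 0.0102% higher and 0.148% lower, and 0 of the 8 and 7.45% of all were under 0.05 before adjustment. The libraries of mock and 1 day overlapped in all 8 genes, and 12.3% of tested genes had no overlap. For 4 of the 8 all 3 shallow libraries were above the other 6, which makes any groups compared overlap. Nothing is therefore read from the overlap.

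After 7 days on carbenicillin, the longer exposure of the design, again 0 of the 8 genes were called by edgeR, with 0 at an unadjusted p under 0.05, and 0% of all tested genes were called (4.44% at an unadjusted p under 0.05). DESeq2 called 46 genes here but none of the members; it gave no adjusted p for CML38. ZAT12 averaged 18.5 ± 8.89 CPM against 23.4 ± 4.01 CPM in mock (SD, n = 3 each), which put the log2 fold change at -0.37 (SE 0.30, interval -1.02 to 0.28, adjusted p = 1 by the edgeR fit). WRKY40 averaged 5.23 ± 5.21 against 3.54 ± 3.15 CPM, a log2 fold change of 0.64 (SE 0.74, interval -0.98 to 2.26). TCH2 was at -0.37 (SE 0.41), CML38 at -0.33 (SE 0.55), WRKY53 at -0.24 (SE 0.27) and ZAT10 at -0.17 (SE 0.83). TCH3 and TCH4 were at 0.08 (SE 0.39) and -0.02 (SE 0.58). Mock and 7 day libraries overlapped in all 8 genes, and 9.15% of all tested genes had no overlap. As for 1 day, nothing is read from the overlap. Without the 3 shallow libraries, none of the 8 was called, and the log2 fold changes after 7 days were -0.97 for CML38, -0.84 for ZAT10 (adjusted p = 0.478 by edgeR, the lowest of the 8), -0.68 for ZAT12 and -0.58 for WRKY53. TCH3 turned from 0.08 to -0.50, TCH2 was at -0.47 and TCH4 at -0.24, and WRKY40 alone stayed above 0, at 0.37. After 1 day the same fit gave -0.60 for CML38, -0.54 for ZAT12, -0.36 for TCH2, -0.34 for ZAT10 and -0.18 for WRKY53, and 0.76 for WRKY40, 0.28 for TCH4 and 0.12 for TCH3.

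Between 7 days and 1 day, the comparison of long with short exposure, 0 of the 8 genes and 0% of all tested genes were called by edgeR, and 0 of the 8 and 2.03% of all had an unadjusted p under 0.05. DESeq2 called 0. The log2 fold changes ran from -0.46 for TCH3 (SE 0.38) to 0.27 for WRKY40 (SE 0.70). The groups overlapped in all 8 genes, and 6.37% of all genes had no overlap, from which again nothing is read. The median over the 8 genes was -0.19 for 1 day against mock, -0.21 for 7 days against mock and 0.06 for 7 days against 1 day, where the median over all tested genes was 0.00 in each. The comparisons with mock share their mock libraries, and both comparisons of 7 days share theirs. A missed threshold does not show that the groups were alike: the narrowest interval, for WRKY53 after 1 day, ran from -0.69 to 0.47.

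**Figure D4:**
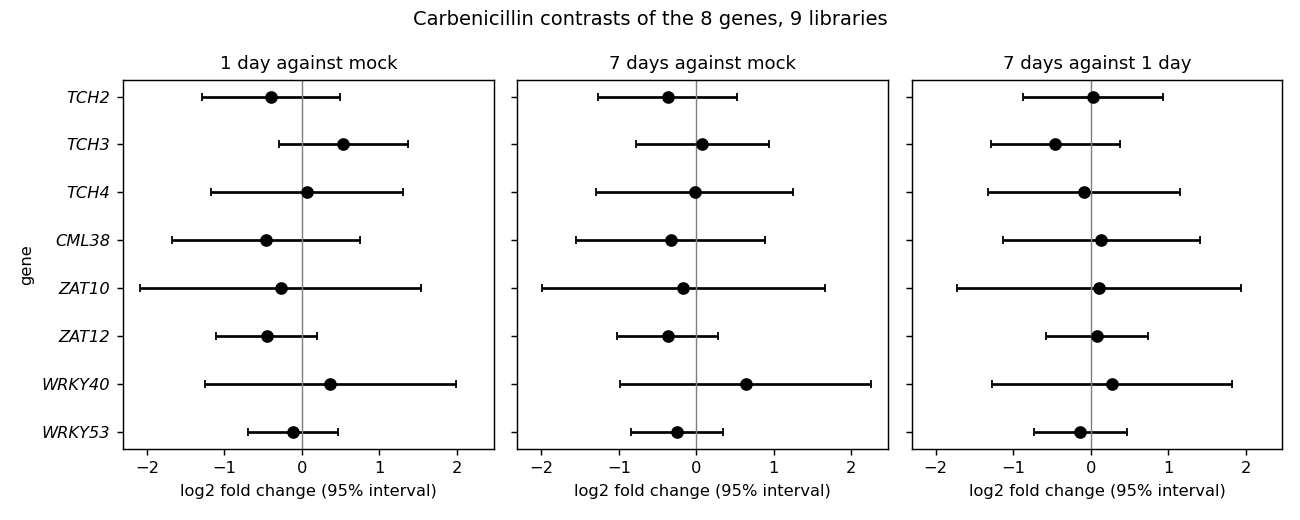
Log2 fold changes of the 8 genes with 95% intervals in the 3 comparisons, from the fit of all 9 libraries. Every interval includes 0, and the widest belong to ZAT10, from -2.09 to 1.54 for 1 day against mock.

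Other genes of the same pathways were listed by family and role. The lists were chosen with earlier results of these data known, so nothing is read from their shares of genes high in the shallow libraries. No tested gene of the lists that follow was called in any comparison by edgeR, and 4 values had an unadjusted p under 0.05: WRKY18 and MPK3 after 1 day, and AZF1 and MYB44 after 7 days. That is 2 of 100 tested genes in each comparison with mock, beside 7.45% and 4.44% of all tested genes, and 0 of 100 for 7 days against 1 day, beside 2.03% of all. Nothing is read from these shares either. Genes high in the shallow libraries vary more within groups, which makes a low p less likely. The median log2 fold changes of the lists against mock are given after 1 day and after 7 days, where the median of all tested genes was 0.00. Of the calmodulin and calmodulin-like genes 15 of 19 were tested, with a median shallow difference of 0.02. CML39 (2.01, on 5 to 24 counts per library), CML45 (1.69) and CML46 (1.27) had the highest. Of the 15, 4 were above both others in all 3 groups, beside 9.16% of all tested genes. Against mock, 8 of the 15 were higher after 1 day and 3 after 7 days (medians 0.01 and -0.14). CML10 and CML43 had the lowest p with mock, at -0.68 (SE 0.38) and 0.36 (SE 0.20) after 1 day.

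TCH4 is itself an XTH gene. Of 14 other XTH genes tested, 0 were above both others in all 3 groups and their median difference was -0.32. The 3 highest were XTH16 at 0.20, XTH19 at 0.10 and XTH18 at 0.08. XTH26 (-2.10), XTH14 (-0.92) and XTH12 (-0.90), picked after their values had been seen, lay lowest. XTH26 had 2 counts in mock 1, which is 0.350 CPM, against 7.73 and 6.87 CPM in mock 2 and 3. Against mock, 11 of the 14 were higher after 1 day and 5 after 7 days (medians 0.11 and -0.13). XTH24 and XTH17 had the lowest p with mock, XTH24 at 0.75 (SE 0.43) after 1 day and XTH17 at -0.19 (SE 0.12) after 7 days.

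Among 7 tested C2H2 zinc finger relatives of the ZAT genes, ZAT11 (0.54), AZF3 (0.29) and AZF1 (0.09) had the highest differences, and 2 of the 7 were above both others in all 3 groups, beside 9.16% of all tested genes. ZAT18 (-0.37) and AZF2 (-0.15), named after their values were seen, lay lowest. Their median log2 fold changes were -0.09 and -0.16. AZF1 was at -0.43 (SE 0.15) after 7 days, with an unadjusted p of 0.0166 and an adjusted p of 0.939 by edgeR, and ZAT5 at 0.21 (SE 0.10) after 1 day. Among 17 tested stress WRKY genes the median difference was 0.02, with WRKY46 (1.12), WRKY22 (0.85) and WRKY54 (0.66) highest. WRKY8 (-1.22) and WRKY28 (-1.005) had the lowest, WRKY8 being named after its value was seen, and both were below 0 in each of the 3 groups. Counts were few, at 5 to 13 per library for WRKY46, 2 to 44 for WRKY8 and 1 to 23 for WRKY28. WRKY18, a partner of WRKY40, was the 1 of the 17 that was above both others in all 3 groups, by a mean of 0.32, where 9.16% of all tested genes were. WRKY60, the other partner and named after its value was seen, had differences of 0.11 in mock, -0.36 in 1 day and -0.53 in 7 days (mean -0.26). Of the 17, 10 were higher than mock after 1 day and 10 after 7 days (medians 0.19 and 0.08). WRKY18 was also at 0.50 (SE 0.19) after 1 day (adjusted p = 0.516 by edgeR), and WRKY28 at -1.23 (SE 0.56).

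The list of other rapid stress genes had the highest median among these lists. Of 26 tested, 18 were above both others in all 3 groups, beside 9.16% of all tested genes, and their median difference was 0.53. As this list too was chosen with the pattern known, its share is a description and no support for the pattern. CAF1a, a deadenylase of messenger RNA, had 10.7, 1.01 and 0.942 CPM in mock 1 to 3 and 17.99 CPM in 7 days 3, a mean difference of 3.01. ERF105, an ethylene response factor, had 8.93, 1.26 and 1.08 CPM in mock 1 to 3 and 14.7 CPM in 7 days 3, a mean difference of 3.00. Both stood further apart than ZAT10, and ERF13 followed at 1.63, on only 0 to 6 counts per library. NHL10, named after its value was seen, went the other way in all 3 groups, with differences of -1.60, -0.96 and -1.05. Of the 26, 14 were higher than mock after 1 day and 13 after 7 days (medians 0.03 and -0.01). MPK3, a kinase of stress signalling, was at 0.37 (SE 0.12) after 1 day (adjusted p = 0.422 by edgeR), and MYB44 at -0.37 (SE 0.16) after 7 days.

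Of 6 tested genes of jasmonate synthesis, LOX4 (1.91), AOC3 (0.48) and OPR3 (0.37) had the highest shallow differences. AOC2, named after its value was seen, was lower in the shallow library of each group, by a mean log2 difference of -1.20. The medians against mock were -0.06 and -0.04. LOX4 and AOS had the lowest p with mock, LOX4 at 0.75 (SE 0.82) after 7 days and AOS at -0.14 (SE 0.17) after 1 day. The list of mechanosensing and calcium entry also holds calcium pumps and CAMTA factors. Its 15 tested genes lay between -0.25 and 0.36 with a median of 0.08. The channels MSL9 (0.36) and MSL10 (0.31) and the receptor kinase THE1 (0.19) were highest. Their medians against mock were 0.01 and 0.04. ACA8, a calcium pump, was at -0.21 (SE 0.10) and CAMTA3 at 0.25 (SE 0.13) after 1 day.

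**Figure D5:**
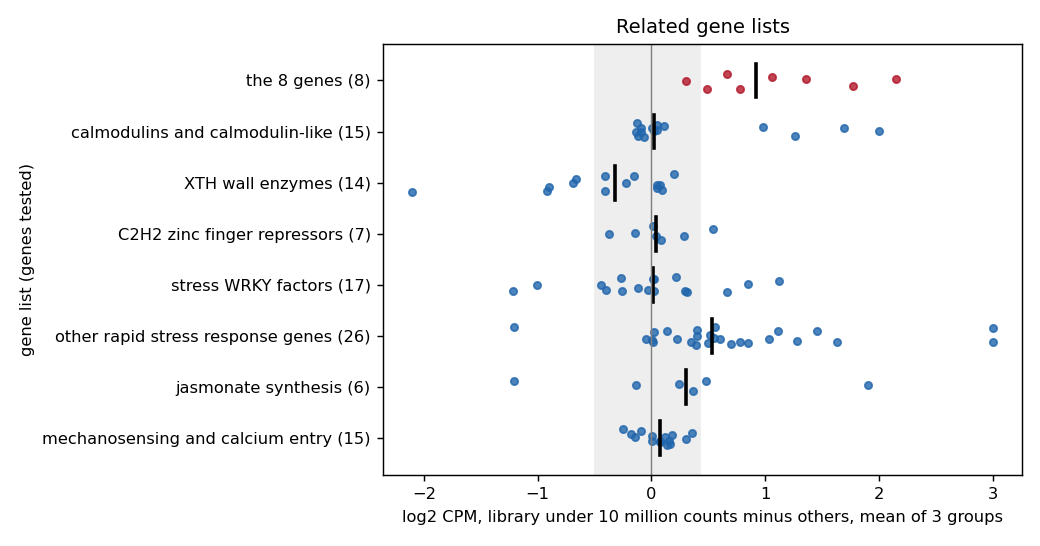
Mean over the 3 treatment groups of the log2 CPM difference between the library under 10000000 counts and the others of its group, for each tested gene of 7 related lists and for the 8 genes; black ticks are medians and the grey band is the 5th to 95th percentile of all tested genes. The 8 genes have a median of 0.92, other rapid stress genes 0.53 and other XTH genes -0.32.

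The profile of each gene over the 9 libraries was compared with the mean profile of the 8 genes by the root mean square distance of centred log2 CPM. Among the 18890 other genes with a mean of at least 1 CPM, the nearest was SZF1, a zinc finger gene of the CCCH type, at 0.17. SZF1 stood at 45.4 to 52.2 CPM in the shallow libraries and at 20.4 to 25.4 CPM in the other 6. AT2G25460 (0.18), AT5G41740 (0.20) and AT5G43620 (0.20) followed, then RCA, which encodes Rubisco activase (0.21), BPG2 (0.21), PHI-1 (0.22), PDCB5 (0.22), AT4G24380 (0.23) and AT4G27280 (0.23). SZF1 and PHI-1 are also in the list of rapid stress genes, the latter as EXL1. Of the 8 genes, TCH2 lay nearest to the mean profile (0.21) and ZAT10 farthest (0.54), with TCH3 at 0.48. The mean profile includes each of the 8 genes itself. These distances are not scaled, so they take in the size of the differences between libraries as well as their direction. The closest pairs were TCH2 with ZAT12 and WRKY53 with ZAT12 (0.25 each), and the most distant was TCH3 with ZAT10 (0.93).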

How the data were processed

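Root RNA was measured in 9 libraries, grouped and numbered by the sample titles. The deposited file gives raw gene counts made by the authors; they are whole and unscaled, and 2 blank lines were left out. Per the labels' protocols, seedlings grew in long days (16 h light) at 24 °C, a Qiagen plant kit gave the RNA, and the TruSeq kit for stranded total RNA gave the libraries. The submitters' processing notes name FastQC, cutadapt and edgeR. Aligner, counter, annotation and strand setting: not given in the sources used here.

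Counts were fitted with edgeR 4.0.16 in R 4.3.3 (filterByExpr, TMM, quasi-likelihood test, all 9 libraries, group as the only factor) with calls at an adjusted p (Benjamini-Hochberg, over 19580 genes) under 0.05. The fit was tested on simulated data. Standard errors are the absolute log2 change over the square root of F. Names, exon lengths and promoters came from RefSeq TAIR10.1. Totals of 5820675 to 16088265 counts limit precision for genes of few counts; Poisson intervals cover counting error only. The 8 genes and all lists were chosen with earlier results of these data known. Named genes are the 8 members, per list the 2 with the lowest p against mock and the 3 with the highest shallow difference, and the 10 nearest profiles. Alternatives were RLE or upper quartile scaling, no filter or a minimum CPM of 1, DESeq2 1.42.0, fits of only the 2 groups compared, a replicate block, no organelle genes or rRNA, no shallow libraries, depth class as a term, an adjusted p under 0.01 and leaving out each library; a block within the 2 groups compared was added after seeing the data. Deviations from group means correlated over 0.1 in 3 of 3 same-number pairs between 7 days and 1 day (0.205 to 0.257), and in 1 of 3 with mock for each carbenicillin group. Unlike-number pairs ran from -0.2 to 0.0277 between 7 days and 1 day. With mock they ran from -0.375 to 0.36 for 1 day and from -0.379 to 0.327 for 7 days. The highest with mock joined shallow libraries: mock 1 with 1 day 3 and with 7 days 3. Whether libraries of the same number belong together was not tested. Libraries of a group differed beyond sampling noise (chi-square over its degrees of freedom 9.95 to 31.1).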

Additional observations from a re-analysis of the deposited data

How the results depend on the processing

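None of the 8 genes was called in any of 3 comparisons at any of 20 alternative settings, which share most of their libraries. Counted by gene, comparison and setting these are 480 results, and in 48 of them the direction turned. DESeq2 gave no adjusted p for CML38 in 7 days against mock. Depth limits CML38 most, with 6 to 22 counts per library. The cause of the changes below was not tested.

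For 1 day against mock the 31 called genes became 61 without a filter, 203 by DESeq2, 94 without the shallow libraries, 58 with depth class as a term, 74 with a replicate block in only the 2 groups compared and 0 at an adjusted p under 0.01. They ranged from 0 to 44 with a library left out, and were 0 without mock 3, 1 day 1 or 1 day 2. For 7 days against mock the count of 0 became 46 by DESeq2, 13 without the shallow libraries and 2 with depth class. No count for 7 days against 1 day left 0.

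For 1 day against mock, TCH4 was at -0.0059 by DESeq2. Leaving out a library gave -0.28 to 0.59 for TCH4, -1.11 to 0.49 for ZAT10 and -0.052 to 1.17 for WRKY40. For 7 days against mock, TCH3 was at -0.50 without the shallow libraries and -0.034 with depth class; leaving out a library gave -0.37 to 0.39 for TCH3, -0.84 to 0.012 for TCH2, -0.74 to 0.51 for TCH4, -0.98 to 0.14 for CML38, -1.60 to 0.60 for ZAT10 and -0.42 to 1.44 for WRKY40.

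For 7 days against 1 day, without the shallow libraries TCH2 was at -0.11, CML38 at -0.37, ZAT10 at -0.51, ZAT12 at -0.14 and WRKY40 at -0.39, and with depth class TCH2 was at -0.0031 and ZAT10 at -0.11. With the replicate block TCH2 was at -0.0094 and ZAT10 at -0.053 (-0.12 in only the 2 groups compared); the block changed no call of the 8 genes. Leaving out a library gave -0.44 to 0.37 for TCH2, -0.82 to 0.31 for TCH4, -0.52 to 0.61 for CML38, -1.33 to 0.94 for ZAT10, -0.33 to 0.34 for ZAT12, -0.79 to 0.72 for WRKY40 and -0.44 to 0.040 for WRKY53.

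The scalings and prior counts tried differ too little to turn the sign of the mean shallow difference of the 8 genes, so nothing is read from its sign. In the 7 day group this difference was 1.59 with upper quartile scaling and 1.66 with a prior count of 0.5. With 1 of the other libraries alone the difference was 0.68 to 0.81 in mock, 0.63 to 1.102 in 1 day and 1.61 in 7 days.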
